A study of Zea mays with 16 samples.

Results

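Among the 17621 probe sets of the maize array that measure maize transcripts, 75 (0.426%) read highest at post-stress recovery in both inbred lines. A probe set was a member when the mean of its 2 recovery arrays lay at least 1 log2 unit, which is a fold of 2, above the highest of control, moderate stress and severe stress within HKI1105 and also within V-372. Members were thus chosen by their recovery levels and the distance of these to the other stages. Recovery levels, their differences between the lines and the changes from control to recovery are therefore given as a description, with no p, and a count of members past a threshold in such a comparison stands beside the share of all probe sets with nothing read from it. HKI1105 is an inbred line tolerant to waterlogging and V-372 is a susceptible one, and root RNA of each was measured on Affymetrix GeneChip Maize Genome Arrays, on which a probe set is a group of short probes against 1 transcript. Control roots were sampled 28 days after sowing from plants that were watered daily and never waterlogged. Moderate stress was sampled on day 32 after 4 days of standing water, severe stress on day 35 after 7 days, and recovery on day 42 from plants whose pots had been drained on day 35. All groups shared pots of sandy loam soil, and each of the 8 groups had 2 arrays, 16 in all.

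No unstressed roots of the later days entered the comparison, so stage and plant age cannot be told apart: a recovery level is that of roots of day 42 and a control level that of roots of day 28. In whole roots, fewer cells of a type and less RNA per cell cannot be told apart either. By the labels the pots were sealed on day 29 and drained after 7 days of water, whereas the text of the study gives days 28 and 42. Each line is a single inbred, so a difference between the lines is a difference between these 2 genotypes. Whether both arrays of a group are biological replicates, as GEO states, or technical ones, as the methods state, is unsettled, so that the p-values reflect no more than the spread of these arrays.

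When flooded soil drains, roots that had adjusted to a lack of oxygen meet air again, and the return of oxygen brings oxidative and drying stress. Late embryogenesis abundant proteins, of which the dehydrins are one class, are small hydrophilic proteins known from ripening seeds and from tissues that lose water, and abscisic acid induces many of their genes. Chitinases, beta-glucanases and thaumatin-like proteins are secreted defence proteins that attack the walls or membranes of fungi and accumulate in injured, infected or ageing plant tissue.

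Values are on the log2 scale of GCRMA, the authors' background correction and normalization, with a floor at 2.007 that stands for no signal above background. Some probe sets also repeat an identical value above this floor on several arrays, such as 2.26 for Zm.2959.1.S1_at and 8.89 for Zm.17726.1.A1_at. Such a value may be a lower limit of that probe set rather than a measured level, which was not tested. The 2 arrays of a group correlated at 0.996 to 0.999, and the SD of the 2 arrays of a member had a median of 0.08 in both lines. In each group 4336 to 4859 probe sets had identical values on both arrays. Such ties raise the correlation and lower the SD. The levels of 38 root marker probe sets summed to 236 in the HKI1105 control and to 305 to 370 in every other group. The 36 probe sets for RNAs added before labelling had a median level of 10.14 in the HKI1105 control arrays and of 6.42 to 8.07 in the other groups, so that the HKI1105 control stood apart. The 32 green tissue markers summed to 341 in the V-372 severe group and to 142 to 282 in the others. With the HKI1105 control group left out of the rule, 132 probe sets met it, and with the V-372 severe group left out 142 did, both including all 75 members because the rule then asks for less.

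The members reached a median level of 8.56 at recovery in HKI1105 and 8.38 in V-372. Before that, their median in HKI1105 was 4.92 in the control, 4.56 at moderate stress and 6.30 at severe stress, and in V-372 it was 5.08, 4.81 and 5.09. The median moved little until drainage in V-372. In HKI1105 the median at severe stress lay above that of the control, the group that stood apart. The median of the members' own changes from control to severe stress was smaller, at 0.42 in HKI1105 and 0 in V-372. Relative to severe stress, the last flooded stage, the members' recovery level was higher by a median of 1.91 in HKI1105 (range 1.01 to 6.55) and 2.97 in V-372 (range 1.02 to 8.48). Over all probe sets the median of the same difference was 0 in both lines.

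**Figure D1:**
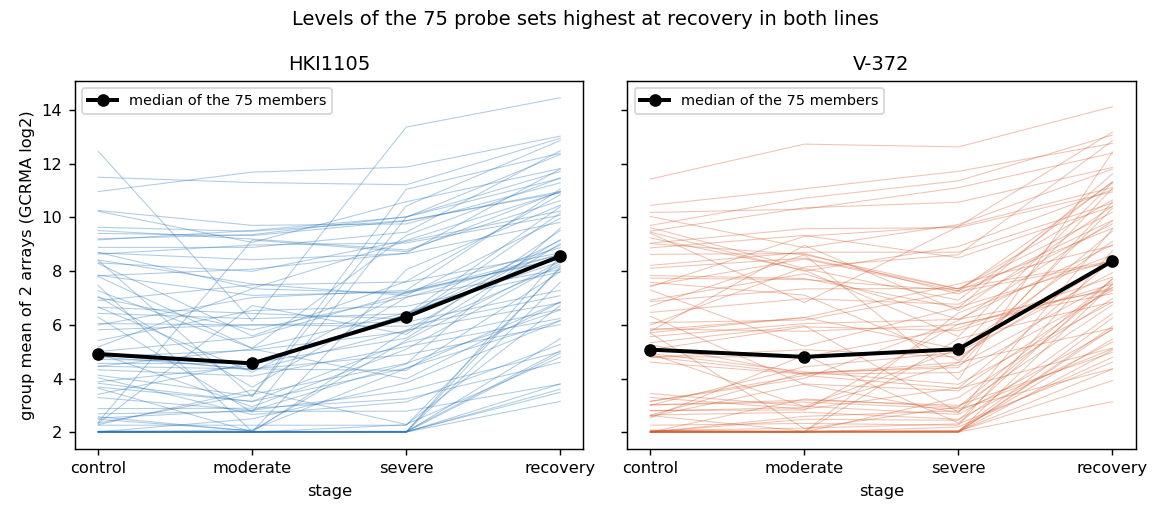
Group means of the 75 members (thin lines, GCRMA log2) over the 4 stages in HKI1105 (left) and V-372 (right), with the median of the members as a thick black line. The median ends at 8.56 and 8.38. In HKI1105 it reads 4.92 in the control and 6.30 at severe stress, where the median change per member is 0.42. In V-372 it leaves its control level at recovery.

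The margin, which is recovery minus the highest other stage, had a median of 1.69 in HKI1105, a fold of 3.22, and reached 6.55. In V-372 its median was 1.91, a fold of 3.76, and it reached 6.43. It was the larger in V-372 for 46 members and in HKI1105 for 29, and it exceeded 2 in both lines for 21. Recovery levels correlated between the lines at r = 0.874 and margins at r = 0.501 across the 75 members; both are descriptions over probe sets of the same 16 arrays, of which the rule had fixed the lower end. In both lines the 2 recovery arrays lay above the 6 other arrays of the line for all 75 members, a count that the rule nearly fixes, and they did so by at least 1 unit in both lines for 50.

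**Figure D2:**
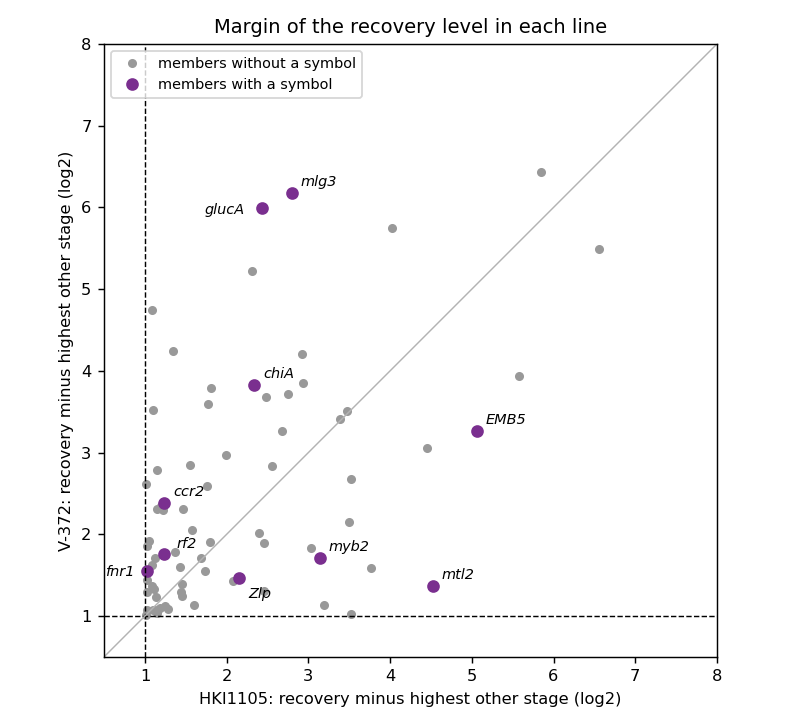
Margin of each member in HKI1105 (horizontal, log2) against V-372 (vertical, log2), with members that carry a gene symbol named, dashed lines at the threshold of 1 and a grey line of equality. The 3 farthest members have no gene name, mlg3 and glucA lie far above the line of equality, and EMB5 and mtl2 lie below it.

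The stage that came second differed between the lines. In HKI1105 severe stress was the second highest stage of 47 members, the control of 22 and moderate stress of 6. In V-372 the counts were 29, 23 and 23. Both lines had the same second stage for 29 members. Members with 1 identical value at control, moderate and severe stress, such as Zm.13796.1.S1_at, were counted under the control in every such count, the lowest stage included. Other members near the floor were ranked on very small differences. The matching counts over all probe sets were not computed, so nothing particular to the members is read from these. The lowest stage was moderate stress for 35 members in HKI1105 and the control for 32, and in V-372 it was the control for 36 and severe stress for 23.

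The same rule for other stages gives a scale for the number 75. It found 99 probe sets highest in the control of both lines, 85 highest at moderate stress, 10 highest at severe stress and 13 lowest at recovery. Highest at recovery held for 247 probe sets in HKI1105 and 424 in V-372, so the 75 shared ones were 30.4% of the first list and 17.7% of the second. The same shares were 9.2% and 20.0% for highest in the control and 10.9% and 24.4% for moderate stress. For severe stress they were 17.9% and 0.834%. On the V-372 list the share for recovery thus lay below those for control and moderate stress.

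Of the 75 members, 17 have a gene name or a gene model in the sources used here and 10 of these carry a gene symbol. The share of named members, 22.7%, was close to that of all probe sets, 21.9%. The 75 fall into 73 transcript clusters of the array design, 2 of which hold 2 members each. A total of 24 members have a further probe set in their cluster, which gives 29 other probe sets. Of these 14 stayed within 1 unit of the floor in every group, and of the remaining 15 there were 11 that read highest at recovery in both lines by any margin.

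A pair of late embryogenesis genes stood among the members with the widest margins. EMB5, a late embryogenesis abundant gene first known from maize embryos, read 3.86 and 2.72 in the control arrays of HKI1105, 2.73 and 2.90 at moderate stress, 4.67 and 4.42 at severe stress and 9.55 and 9.66 at recovery. In V-372 it read 6.31 and 6.33, then 4.20 and 3.36, then 2.72 and 2.72, and finally 9.61 and 9.54. HKI1105 had little EMB5 signal before recovery, while V-372 had its second highest level in the control and declined during flooding. The value 2.72 was identical on both V-372 severe arrays and 1 HKI1105 control array, so it may be a lower limit of this probe set. At recovery HKI1105 minus V-372 was 0.03 ± 0.35 (SE). The recovery level was 33.3 times the next highest stage in HKI1105 and 9.57 times in V-372. During the flood EMB5 fell in V-372 by 2.54 ± 0.35 at moderate stress (limma, adjusted p = 0.000531) and by 3.60 ± 0.35 at severe stress (adjusted p = 2.48e-05), and it rose by 1.26 ± 0.35 in HKI1105 at severe stress (adjusted p = 0.0154), with 2 arrays in each group.

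The group 3 late embryogenesis gene mlg3 was near the floor in both controls, with 2.56 and 2.10 in HKI1105 against 2.66 and 2.61 in V-372. In HKI1105 it read 6.52 and 6.91 at moderate stress, 5.49 and 5.80 at severe stress and 9.54 and 9.49 at recovery. In V-372 it read 4.11 and 4.33, then 4.35 and 4.47, and then 10.69 and 10.49. It was raised in both lines during the flood and stood higher still at recovery, as the rule asks of every member. At moderate stress it was 20.9 times its control in HKI1105 (limma, log2 difference 4.39 ± 0.18, adjusted p = 7.56e-08) and 3.0 times in V-372 (1.58 ± 0.18, adjusted p = 0.000165), and this response was larger in HKI1105 by 2.80 ± 0.26 (adjusted p = 2.16e-05). At recovery HKI1105 minus V-372 was -1.07 ± 0.18.

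Of the 8 probe sets of the list of dehydrins and late embryogenesis proteins, EMB5 and mlg3 were the 2 members. Among the other 6, dhn1 (also called RAB-17), a dehydrin induced by abscisic acid and drying, read highest at recovery in both lines, with group means of 14.01 in HKI1105 and 14.21 in V-372. It was no member because V-372 already had 13.62 at severe stress. The 3 probe sets of dhn2 read 10.75 to 13.81 at recovery in HKI1105, below their moderate stage, and 11.43 to 14.26 in V-372, above every other stage by 1.15 to 1.32. Emb12 and Emb15 had their highest group mean in V-372 at severe stress, at 10.91 and 8.13. Over the list, recovery was higher than control in 6 of 8 probe sets in HKI1105 and 3 in V-372 (limma, p at most 0.001 and at least 5-fold), where 3.16% and 2.93% of all probe sets passed in this direction. The median change was 3.81 and 1.54, against 0 over all probe sets in both lines. At an adjusted p under 0.05 with no fold threshold, 6 were higher in HKI1105 and all 8 in V-372 (limma, background 26.8% and 23.1%). In HKI1105 1 was lower, and in V-372 0 were. The changes in HKI1105 start from the control group that stood apart. Because the rule used these contrasts, the counts describe the list and test nothing about it.

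Defence proteins were the largest named group, with glucA, chiA and Zlp. The beta-glucanase gene glucA read 8.28 and 8.53 in the control of HKI1105, 3.22 and 3.43 at moderate stress, 10.38 and 10.47 at severe stress and 12.82 and 12.91 at recovery. In V-372 the arrays read 5.10 and 4.75, then 2.95 and 2.95, then 4.78 and 5.41, and then 11.18 and 10.98. Moderate stress was the lowest stage in both lines. By severe stress HKI1105 exceeded its control by 2.02 ± 0.20 (limma, adjusted p = 2.9e-05), and V-372 differed from its control by 0.17 ± 0.20 (adjusted p = 0.626). The fall at moderate stress was 5.08 ± 0.20 in HKI1105, a fold of 33.8 (limma, adjusted p = 5.16e-08), and 1.97 ± 0.20 in V-372, a fold of 3.92 (adjusted p = 7.01e-05). At severe stress glucA was 40.4 times higher in HKI1105 than in V-372 (5.33 ± 0.20, adjusted p = 4.7e-08), and at recovery the difference was 1.78 ± 0.20, a fold of 3.44. A second member of the same cluster, Zm.6689.1.A1_s_at, whose probes may also bind related transcripts, followed the same course and ended at 14.39 and 14.52 in HKI1105 against 13.13 and 13.23 in V-372.

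For chiA, a chitinase gene first described from maize seeds, the lines moved in opposite directions during the flood and met at recovery. In HKI1105 it read 5.47 and 7.11 in the control, 2.73 and 2.75 at moderate stress, a mean of 10.01 at severe stress and 12.41 and 12.28 at recovery. The arrays of V-372 gave 6.69 and 6.70, then 8.65 and 8.56, then 3.55 and 4.36, and then 12.46 and 12.41. The controls overlapped, moderate stress was low in HKI1105 and raised in V-372, and severe stress was the reverse. In HKI1105 chiA fell by 3.54 ± 0.45 at moderate stress and rose by 3.72 ± 0.45 at severe stress (limma, adjusted p = 0.000116 and 0.000104). In V-372 it rose by 1.91 ± 0.45 and then fell by 2.74 ± 0.45 below the control (adjusted p = 0.00967 and 0.000701). The differences between these responses were -5.46 ± 0.63 and 6.46 ± 0.63 (limma, adjusted p = 9.33e-05 and 2.28e-05), while at recovery HKI1105 minus V-372 was -0.08 ± 0.45.

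Zlp encodes a zeamatin-like protein of the thaumatin family. The probes of its member probe set, Zm.281.1.S1_s_at, may also bind related transcripts. This probe set read 7.87 and 7.73 in the HKI1105 control, 4.74 and 5.52 at moderate stress, 9.29 and 9.36 at severe stress and 11.42 and 11.53 at recovery. The V-372 arrays stood at 5.84 and 5.68, then 8.95 and 8.97, then 6.65 and 6.42, and then 10.41 and 10.43. As for chiA, moderate stress was the lowest stage of HKI1105 and the second highest of V-372. Zlp fell by 2.67 ± 0.21 in HKI1105 (limma, adjusted p = 4.7e-06) and rose by 3.20 ± 0.21 in V-372 (adjusted p = 3.9e-06) at moderate stress. The HKI1105 response minus that of V-372 was -5.87 ± 0.29 (adjusted p = 4.46e-07). The gene has 2 other probe sets. Zm.281.1.S1_at reached 11.12 at recovery in HKI1105 but stayed between 2.36 and 2.61 in V-372. Whether the member's signal in V-372 comes from Zlp or from a related transcript was not tested. Zm.16226.1.A1_at ran like the member, lowest at moderate stress in HKI1105 with 2.16, second highest there in V-372 with 9.66, and highest at recovery in both lines with 6.74 and 10.76, but its margins were 0.26 and 1.1.

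The list of defence proteins and proteinase inhibitors has 21 probe sets, of which 3 were members. Among its other 18, recovery was higher than control in 10 in HKI1105 and in 10 in V-372, 7 of them shared. Including members, 13 of 21 passed in each line (limma, p at most 0.001 and at least 5-fold; background 3.16% and 2.93%), with a median change of 2.54 in HKI1105 and 3.56 in V-372 against 0 over all probe sets. The thaumatin-like PR-5 probe set Zm.6659.1.A1_at was no member because HKI1105 read 12.90 at severe stress against 12.99 at recovery, and V-372 read 12.85 at moderate stress against 13.00. A PR-1 probe set, Zm.15280.1.A1_s_at, read 7.87 and 8.72 in HKI1105 against 3.02 and 8.84 in V-372 at the same stages, with margins of 0.86 and 5.82. These values are again those of contrasts that the rule used.

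The metallothionein-like gene mtl2, of a family of metal-binding proteins, was at the floor in 4 of the 8 groups. In HKI1105 it read 4.80 and 2.48 in the control, 2.02 and 2.01 at moderate stress, 2.01 and 2.01 at severe stress and 8.04 and 8.28 at recovery. In V-372 the control and moderate arrays all read 2.02, severe stress gave 4.93 and 6.04, and recovery gave 6.73 and 6.98. Apart from 1 HKI1105 control array, signal appeared at severe stress in V-372 and only at recovery in HKI1105. At severe stress HKI1105 minus V-372 was -3.47 ± 0.63 (limma, adjusted p = 0.0014), and at recovery it was 1.31 ± 0.63. A second probe set of mtl2, Zm.144.2.A1_at, was at the floor in all 8 groups. The 2 arrays of the HKI1105 control and of the V-372 severe group lay far apart, and probes of this probe set may bind other transcripts too, since its type is assigned to probes shared between genes.

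Of the 71 probe sets in the transcription factor list 1 was a member, myb2 (also Myb49), of the MYB family. It read 7.77 and 7.89, then 8.05 and 8.10, then 8.62 and 8.71, and finally 11.83 and 11.78 in HKI1105. Levels in V-372 were 9.70 and 9.55, then 8.18 and 8.02, then 6.70 and 7.14, and then 11.29 and 11.38. It climbed slightly with stress in HKI1105 and declined in V-372, and then both lines rose, by folds of 8.79 and 3.28 over the next highest stage. At severe stress it had risen by 0.84 ± 0.13 in HKI1105 (limma, adjusted p = 0.000466) while the change of V-372 was -2.70 ± 0.13 (adjusted p = 1.62e-07). These responses differed by 3.54 ± 0.18 (adjusted p = 3.19e-07). The array design places 1 further probe set in the cluster, Zm.9391.1.A1_at, which is annotated to another gene, CDC5, and read 8.34 to 8.95 in all groups.

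The last 3 members with a symbol encode enzymes. The gene rf2, a restorer of male fertility that encodes a mitochondrial aldehyde dehydrogenase, read 10.26 and 10.21, then 9.20 and 8.94, then 10.54 and 10.63, and then 11.88 and 11.76 in HKI1105. In V-372 it read 10.03 and 10.04, then 8.92 and 8.83, then 9.50 and 9.97, and then 11.91 and 11.69. At moderate stress HKI1105 had a fall of 1.16 ± 0.15, and in V-372 the fall was also 1.16 ± 0.15 (limma, adjusted p = 0.000124 and 0.000307). At severe stress it was higher in HKI1105 by 0.85 ± 0.15 (limma, adjusted p = 0.00109), and the severe responses differed by 0.65 ± 0.21 (adjusted p = 0.0256). At recovery HKI1105 minus V-372 was 0.02 ± 0.15.

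The gene ccr2 encodes a cinnamoyl-CoA reductase, which commits phenylpropanoids to lignin. In HKI1105 it read 3.86 and 3.51, then 2.79 and 3.51, then 5.45 and 5.25, and then 6.59 and 6.57. Its V-372 arrays gave 3.51 and 3.38, then 2.81 and 3.13, then 2.70 and 2.63, and then 5.74 and 5.91. Only HKI1105 had raised it by severe stress, by 1.67 ± 0.22 (limma, adjusted p = 0.000203), and in V-372 it had changed by -0.78 ± 0.22 (adjusted p = 0.0166). The responses differed by 2.44 ± 0.31 (adjusted p = 0.000138). None of the other 12 probe sets of the phenylpropanoid, lignin and flavonoid list was a member, and the median change of the list from control to recovery was 0.47 in HKI1105 and -0.28 in V-372.

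A probe set of fnr1, which encodes a ferredoxin-NADP reductase of plastids, was a member just above the threshold in HKI1105. It read 4.64 and 5.19, then 4.87 and 3.77, then 5.65 and 5.94, and then 6.72 and 6.92 there. In V-372 it read 5.36 and 5.32, then 5.87 and 6.07, then 2.75 and 2.75, and then 7.68 and 7.37. It dropped in V-372 at severe stress by 2.59 ± 0.33 (limma, adjusted p = 0.000129). Both arrays of that group held an identical value, 2.75, which may be a lower limit of this probe set. The gene has 3 other probe sets. Of these Zm.4068.2.A1_at and Zm.4068.2.S1_x_at stayed between 2.01 and 2.06 in every group, while Zm.4068.1.S1_at did not peak at recovery in HKI1105, where it read 9.87 in the control and 9.12 at recovery, and had a margin of 0.26 in V-372.

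**Figure D3:**
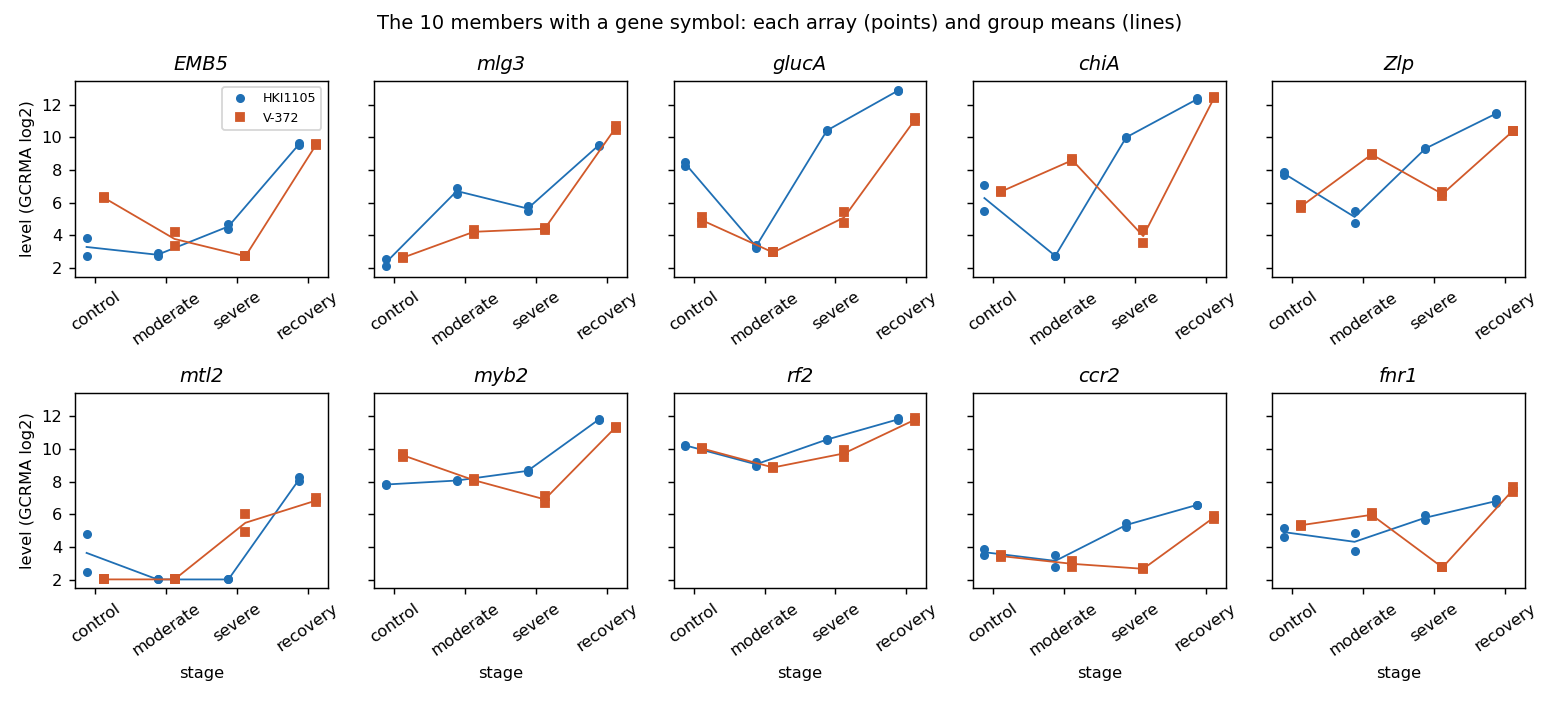
Level of the 10 members with a gene symbol (GCRMA log2) on each of the 2 arrays per group (points) and as group means (lines), by stage, for HKI1105 (blue circles) and V-372 (orange squares). For chiA the lines cross between moderate and severe stress and meet at 12.35 and 12.43, and rf2 stands apart between the lines at severe stress, at 10.59 and 9.74.

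For 7 further members the sources give a gene model and no role. The largest smaller margin of these, 2.75, belonged to GRMZM2G407223, whose group means were 3.88, 4.48, 6.39 and 9.15 from control to recovery in HKI1105, while V-372 had 3.16, 4.0, 6.15 and 9.86. It rose in both lines at severe stress, by 2.51 ± 0.26 and 3.0 ± 0.26 (limma, adjusted p = 3.85e-05 and 1.01e-05), and its control in each line was its lowest stage. GRMZM2G092474 read 4.12, 3.34, 11.05 and 12.39 in HKI1105, while V-372 had 6.0, 8.15, 8.61 and 12.86, so that HKI1105 had made most of its rise by severe stress (6.93 ± 0.25, adjusted p = 4.75e-08). GRMZM2G319781 was the reverse, with 4.94, 2.95, 5.09 and 8.28 in HKI1105, and V-372 had 2.81, 2.83, 6.03 and 7.17, where severe stress raised it by 3.23 ± 0.12 (adjusted p = 2.77e-08).

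Of the 7 gene models, the other 4 were at least 5-fold lower than control at moderate stress in HKI1105 (limma, p at most 0.001). By less than 5-fold, GRMZM2G319781 was also lower there, by 1.99 ± 0.12 (limma, adjusted p = 6.69e-07), and so was GRMZM2G092474, by 0.78 ± 0.25 (adjusted p = 0.0254). Among the 4, GRMZM2G110567 fell in HKI1105 from 7.47 to 2.02, by 5.45 ± 0.12 (limma, adjusted p = 1.27e-09), and in V-372 from 5.69 to 2.13, by 3.56 ± 0.12 (adjusted p = 5.52e-08). GRMZM2G003409 fell in HKI1105 from 7.06 to 3.68 and was back at 7.02 by severe stress, whereas in V-372 it declined from 9.24 through 8.04 to 5.56 before reaching 11.29. GRMZM2G004160 fell from 8.29 to 5.59 in HKI1105 and read 5.71 and 6.27 in V-372 at these stages. GRMZM2G018793 fell from 6.67 to 4.23 in HKI1105 and from 5.25 to 4.17 in V-372. The recovery levels of these 4 lay between 8.44 and 10.85 in HKI1105 and between 7.60 and 11.29 in V-372.

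The 3 members with no name that had the widest margins are given next. Zm.2959.1.S1_at read 2.26 on all 6 earlier arrays of HKI1105 and 2.26 to 2.40 on those of V-372, against 8.02 and 8.19, and 8.65 and 8.87, at recovery. Zm.13796.1.S1_at stood at the floor of 2.01 on all 12 earlier arrays and reached 8.56 and 8.56 in HKI1105 against 7.20 and 7.80 in V-372. Zm.14699.1.S1_at read 3.90 and 2.92, then 4.59 and 4.59, then 6.41 and 6.35 in HKI1105 before 10.26 and 10.54. In V-372 it read 2.92 and 2.67 in the control and 4.59 and 4.59 at severe stress before 10.35 and 10.34. The value 4.59 was identical on the HKI1105 moderate and V-372 severe arrays, so it may be a lower limit and no graded rise is read from it. The first of them was thus a recovery-only signal in both lines, as was the second. The third was not in HKI1105, where severe stress had already raised it.

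In HKI1105, 12 members stayed within 1 unit of the floor in control, moderate and severe stress, in V-372 15 did, and 11 did in both lines. At the other end, 20 members exceeded a level of 10 at recovery in both lines. Of the 75, 69 had a mean over all arrays more than 1 unit above the floor, a filter that 69.2% of all probe sets passed, and the other 6 did not pass it.

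At the threshold itself, Zm.5972.1.A1_at had a smaller margin of 1.01 (2.79 to 3.79 from severe stress to recovery in HKI1105), Zm.8367.1.A1_at of 1.02 (7.36 to 8.38 from severe stress to recovery in V-372) and Zm.17630.1.A1_at of 1.02 (4.12 to 5.14 from moderate stress to recovery in V-372). Just outside lay Zm.7906.1.A1_at with 0.99, Zm.2553.1.A1_a_at with 0.99 and Zm.8686.1.A1_at with 0.98. The rule cuts through a continuous range: 302 probe sets passed a margin of 0.5, and 21 passed a margin of 2.

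Comparisons among control, moderate and severe stress did not choose the members, although the rule holds each of these levels at least 1 unit below recovery. They were fitted with limma over all 17734 probe sets of the table and called at a p of at most 0.001 and a fold of at least 5, the study's thresholds, counting members in each direction beside the share of all probe sets called. In HKI1105 at moderate stress 2 members were higher than control, with 5.92% of all probe sets, and 8 were lower, with 4.35%. Those higher were mlg3 and Zm.1754.1.A1_a_at, and those lower were glucA with its cluster partner, chiA, Zlp and some gene models. These gene models were GRMZM2G110567, GRMZM2G003409, GRMZM2G004160 and GRMZM2G018793. In HKI1105 at severe stress 9 members were higher (background 4.02%) and 0 lower (background 3.04%). At an adjusted p under 0.05 without a fold threshold limma gave 34 and 8, with 27.1% and 23.2% of all probe sets.

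In V-372, 2 members were higher at moderate stress (background 2.36%) and 3 lower (background 0.801%). Zlp was 1 of those higher and Zm.12616.1.S1_at the other, while EMB5, GRMZM2G110567 and the cluster partner of glucA were lower. At severe stress 5 were higher (background 5.78%), among them mtl2, GRMZM2G407223 and GRMZM2G319781, and 7 lower (background 3.19%), among them EMB5, chiA, myb2 and fnr1. The median change of the members was close to 0 in V-372 at severe stress and 0.42 in HKI1105, where that of all probe sets was 0. In all, 24 members passed in at least 1 of these 4 comparisons (background 17.9%) and 51 in none. The members called in both lines at severe stress comprised 2 that were higher in both and 1, chiA, that was higher in HKI1105 and lower in V-372.

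The lines were also compared stage by stage. In the controls 7 members were higher in HKI1105 (background 4.17%) and 4 in V-372 (background 5.06%). At moderate stress the counts were 2 (background 2.11%) and 5 (background 1.94%). At severe stress 15 members, 20% of the 75, were higher in HKI1105, where 3.45% of all probe sets were, and 2 were higher in V-372, where 5.48% were. Those 15 included glucA and its cluster partner, chiA, Zlp, ccr2, fnr1 and 4 gene models without a role, of which GRMZM2G110567 differed most, by 5.12 ± 0.12 (limma, adjusted p = 2.3e-09). Those higher in V-372 were mtl2 and Zm.13268.1.S1_at. Members were held by the rule below their recovery level in V-372 at severe stress, a stage at which 1199 probe sets of that line peaked by the same margin and only 56 of HKI1105, so this count is not independent of how the members were chosen. The green tissue markers stood high in that V-372 group, and their part in the count was not tested.

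**Figure D4:**
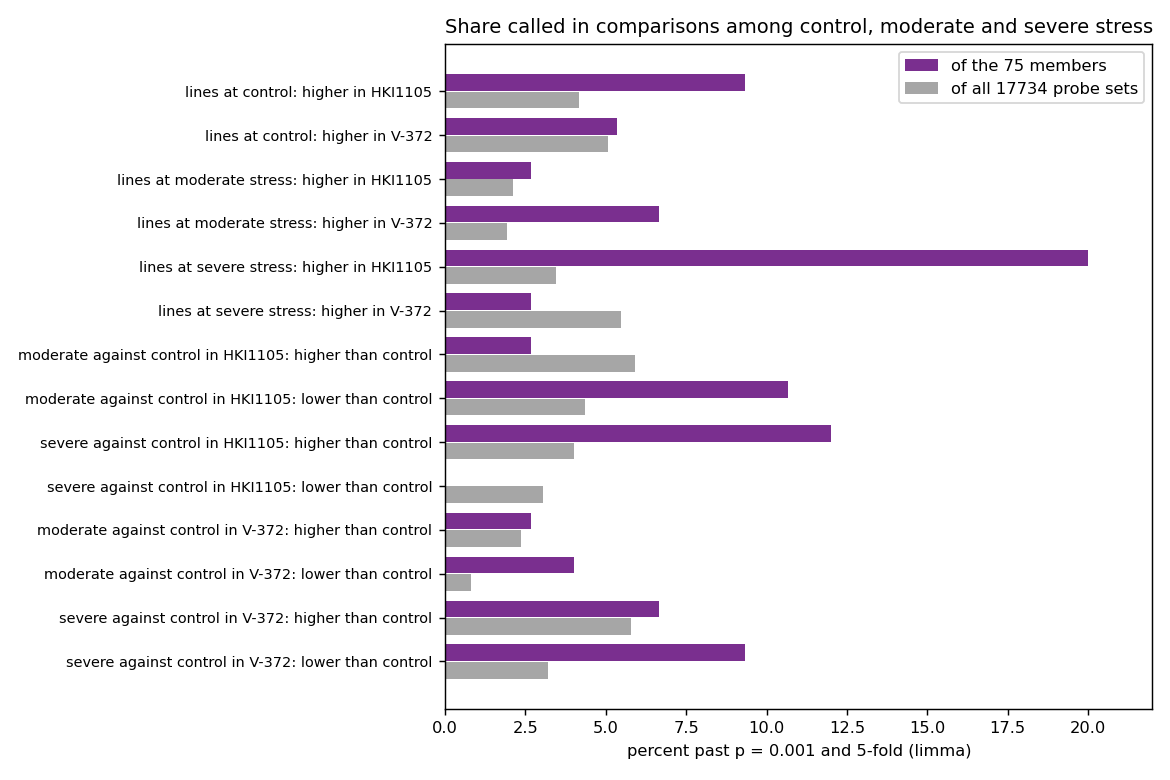
Percent of the 75 members (purple) and of all 17734 probe sets (grey) past both thresholds of the limma test, by comparison among control, moderate and severe stress and by direction. The bar for members higher in HKI1105 than in V-372 at severe stress reaches 20%, against 3.45% of all probe sets. No member lay past both thresholds below the control at severe stress in HKI1105, against 3.04% of all probe sets.

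Recovery levels entered the choice of members, so their differences between the lines describe the members and test nothing. Past both thresholds, 3 members stood higher in HKI1105 (background 2.31%) and 2 in V-372 (background 2.04%). HKI1105 minus V-372 was 3.89 ± 0.32 (SE) for Zm.17630.1.A1_at, 3.70 ± 0.19 for Zm.13389.1.S1_at and 2.75 ± 0.12 for GRMZM2G110567. It was -3.14 ± 0.37 for Zm.13268.1.S1_at and -2.67 ± 0.22 for GRMZM2G003409. For Zm.13268.1.S1_at the difference had the same sign at all 4 stages, with V-372 at 7.30, 5.20, 6.65 and 8.42 and HKI1105 at 4.03, 2.66, 3.13 and 5.27. The lines lay within 1 unit of each other for 51 of the 75 members in the controls, 55 at moderate stress, 38 at severe stress and 41 at recovery. The matching share of all probe sets was not computed, so nothing particular to the members is read from these counts.

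The change from control to recovery also belongs to what chose the members. Past both thresholds it was larger in HKI1105 for 5 members (background 5.54%) and in V-372 for 3 (background 3.94%). EMB5 was 1 of the 5, with a difference of 3.06 ± 0.50 that came with the higher control of V-372. Zm.1754.1.A1_a_at had the widest difference, 4.81 ± 0.17: its HKI1105 control read 2.26 and 2.49 and every other group of either line read between 6.63 and 11.63 on average. Both rest on the HKI1105 control, the group that stood apart. The moderate response was larger in HKI1105 for 3 members (background 5.70%) and in V-372 for 7 (background 4.78%), and the severe response for 13 (background 7.03%) and 4 (background 7.43%), comparisons chosen after the data were seen. From control to recovery 43 members in HKI1105 (background 3.16%) and 45 in V-372 (background 2.93%) lay past both thresholds, counts that the rule shaped.

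By the adjusted p of limma alone, with no fold threshold, more members passed, and so did more of all probe sets. Members higher in HKI1105 and in V-372 numbered 23 and 13 in the controls (background 24.3% and 29.9%), 9 and 19 at moderate stress (16.8% and 22.6%), 35 and 12 at severe stress (27.2% and 21.5%) and 23 and 24 at recovery (18.2% and 21.4%). Members higher and lower than control numbered 11 and 19 at moderate stress in HKI1105 (26.5% and 27.5%). The counts of V-372 were 25 and 14 at moderate stress (14.0% and 19.1%) and 25 and 20 at severe stress (17.5% and 31.7%). Responses larger in HKI1105 and in V-372 numbered 17 and 29 at recovery (24.8% and 23.1%), 9 and 25 at moderate stress (25.1% and 23.6%) and 30 and 14 at severe stress (32.4% and 22.6%). Those at recovery again rest on levels that chose the members.

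A sign of RNA quality moved with recovery. The array carries housekeeping controls with probe sets at the 3′ and at the 5′ end of a transcript, and a smaller 3′ minus 5′ difference stands for longer labelled RNA. For cyclophilin it was 3.27 at recovery in HKI1105 and 2.88 in V-372, against 3.90 to 4.81 and 4.16 to 4.59 in the other groups of these lines, and no array of recovery overlapped an earlier array of its line. For ubiquitin, glyceraldehyde-3-phosphate dehydrogenase and elongation factor 1-alpha the recovery mean in V-372 was the lowest of its line, at 4.09, 6.91 and 9.12. In HKI1105 the ubiquitin value at recovery, 4.18, lay just above that of severe stress, 4.16. Those of glyceraldehyde-3-phosphate dehydrogenase and elongation factor 1-alpha were the lowest at 7.36 and 8.67, with arrays that overlapped those of the control and of severe stress. The 5′ probe set of elongation factor 1-alpha was near the floor in several groups. It read 2.02 to 2.14 before recovery in V-372 and 2.48 in the control and at moderate stress in HKI1105. For actin the recovery mean was the lowest of V-372 at 7.94, but in HKI1105 it was 8.47, above the 7.34 of the control, and its 5′ probe set read 2.01 to 2.04 in every group. The part of this in the members' recovery levels was not tested.

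**Figure D5:**
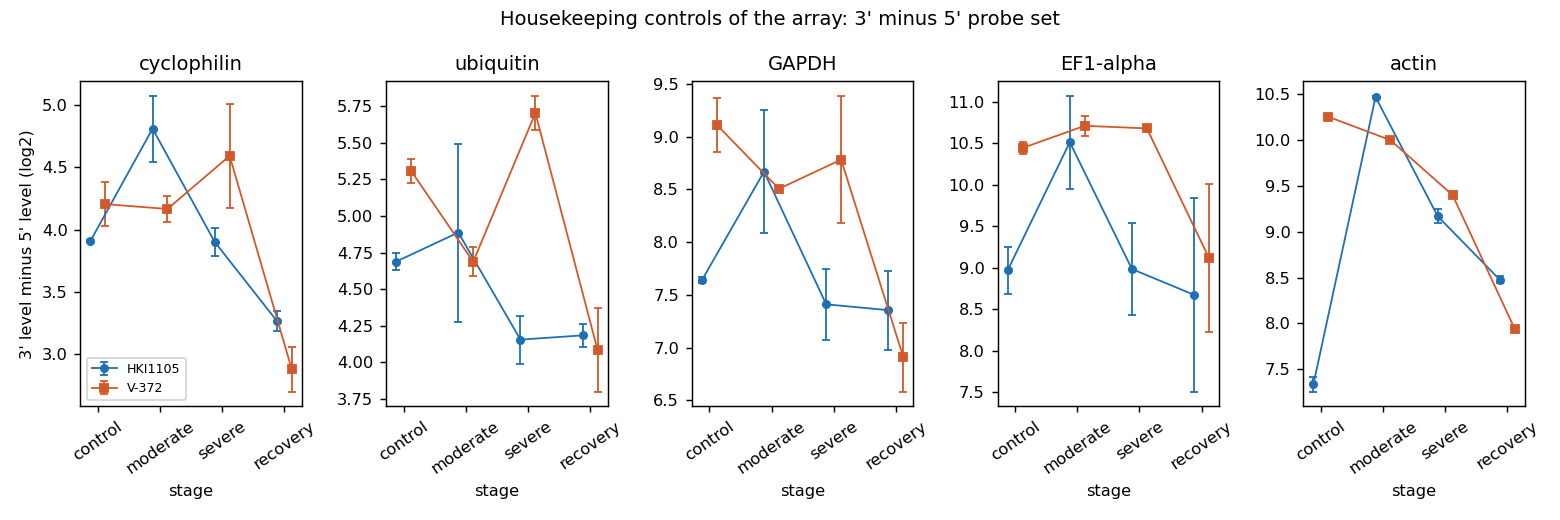
Difference between the 3′ and the 5′ probe set (log2) of 5 housekeeping controls by stage in HKI1105 (blue circles) and V-372 (orange squares); points are means of 2 arrays and bars span both arrays. The recovery value of cyclophilin is the lowest of its line in both, at 3.27 and 2.88.

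The other gene lists gave few or no members. Of 5 probe sets of raffinose and galactinol metabolism none was a member, although galactinol synthase (Zm.12202.1.A1_at) read 10.63 and 10.73 at recovery, above the other stages by 2.0 in HKI1105 and 0.60 in V-372. Of 11 senescence and proteolysis probe sets none was a member. Recovery exceeded control in 1 of them in each line past both thresholds (background 3.16% and 2.93%), and at an adjusted p under 0.05 in 9 in HKI1105 and 10 in V-372 (background 26.8% and 23.1%), with medians of 0.88 and 0.86, values of contrasts that the rule used. None of the 15 heat shock probe sets, the 26 of the low-oxygen response, the 37 aquaporins, the 44 of the cell wall, the 32 green tissue markers or the 38 root markers was a member. In the nutrition list mtl2 was the single member of 25.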

How the data were processed

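Root RNA of 16 samples, 8 groups with 2 arrays each, was hybridized to 16 arrays. The deposited values are log2 levels that the authors made with GCRMA, whose version is not given in the sources used here; they were used without further normalization. The number of arrays limits the precision. Groups followed the labels. Tests were made with limma 3.58.1 in R 4.3.3, as 1 fit over all 17734 probe sets and 8 groups with Benjamini-Hochberg adjustment, and tested on simulated data. No p is given for members in comparisons that hold recovery, whose levels chose them. Figures were drawn with Python 3.11.15 and matplotlib 3.10.9. The members and lists were chosen with earlier results of these data known. Named in the text are all members with a name, the 3 without a name that had the largest smaller margin, the 3 members nearest the threshold on either side, members of gene lists, and members called in a comparison. The last were chosen after their values were seen, as were the other probe sets of members' genes and list genes outside the module. Names came from the platform annotation, a RefSeq gene table and the study's table of gene models, which lists its own differentially expressed genes, so that calls of named members are not independent of it. A probe set with conflicting names was taken out of the defence list. Alternatives were quantile normalization, centring of arrays, other margins, an adjusted p without a fold threshold, the replicate number as a block and leaving out arrays or groups. The responses to moderate and severe stress, the centring on expressed probe sets and the left-out groups were chosen after seeing the data. Probe, promoter and protein sequences were not analysed here.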

Additional observations from a re-analysis of the deposited data

Results flagged for a closer look

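The response of a stage, which is that stage minus control, differed between the lines for several members; each value is the HKI1105 response minus the V-372 response in log2 units with its SE, from limma over 2 arrays a group, and no explanation was tested. At moderate stress it was 2.80 ± 0.26 for mlg3 (adjusted p = 2.16e-05), -3.11 ± 0.28 for glucA (adjusted p = 1.92e-05), -5.46 ± 0.63 for chiA (adjusted p = 9.33e-05) and -5.87 ± 0.29 for Zlp (adjusted p = 4.46e-07). For Zm.6689.1.A1_s_at, of the cluster of glucA, it was -3.74 ± 0.45 (adjusted p = 0.000127).

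At severe stress it was 4.85 ± 0.50 for EMB5 (adjusted p = 3.24e-05), 6.46 ± 0.63 for chiA (adjusted p = 2.28e-05), 3.54 ± 0.18 for myb2 (adjusted p = 3.19e-07), 2.44 ± 0.31 for ccr2 (adjusted p = 0.000138) and 3.47 ± 0.46 for fnr1 (adjusted p = 0.000171). It was -5.10 ± 0.89 for mtl2 (adjusted p = 0.000984), the single member of these with a stronger severe response in V-372. All these differences, at moderate and at severe stress, include the HKI1105 control, the group that stood apart. For mtl2 the arrays of that control read 4.80 and 2.48, and HKI1105 was at the floor at severe stress, with a mean of 2.01. Both V-372 arrays held an identical value for glucA at moderate stress (2.95), and for EMB5 (2.72) and fnr1 (2.75) at severe stress. Such values may be lower limits of these probe sets, which was not tested.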

How the results depend on the processing

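The number of members was 21 with a margin of 2, 302 with a margin of 0.5, 132 without the HKI1105 control group, 142 without the V-372 severe group, and 71 to 77 when 1 array was left out. Quantile normalization gave 69 members, 66 of them shared, array median centring 73, with 67 shared, and centring on expressed probe sets 59. Members higher in V-372 at severe stress numbered 1 under quantile normalization and 1 with the replicate number as a block, against 2. Members higher at moderate stress in V-372 numbered 1 under quantile normalization and 1 under array median centring, and the recovery response was larger in V-372 for 5 under array median centring and 5 under centring on expressed probe sets. The block moved no other count by over 1.5 times. Numbers did not pair arrays: deviations of equal-numbered arrays correlated at -0.16 to 0.20 over 28 pairs of groups, 2 of them above 0.1.

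At an adjusted p under 0.05 with no fold threshold, members higher in HKI1105 and in V-372 numbered 23 and 13 in the controls, 9 and 19 at moderate stress, 35 and 12 at severe stress and 23 and 24 at recovery. Members higher and lower than control numbered 11 and 19 at moderate and 34 and 8 at severe stress in HKI1105, and 25 and 14, then 25 and 20, in V-372. Responses larger in HKI1105 and in V-372 numbered 17 and 29 at recovery, 9 and 25 at moderate and 30 and 14 at severe stress.

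Leaving out 1 array leaves a group with 1, assumed to vary like the others. Counts then ranged from 1 to 3 for members higher in HKI1105 at moderate stress (1 without HKI1105 moderate replicate 2), from 1 to 2 for those higher in V-372 at severe stress (1 without any of 13 arrays), from 0 to 1 for those lower in HKI1105 at severe stress (1 without HKI1105 control replicate 2), and from 1 to 2 for those higher in V-372 at moderate stress (1 without V-372 control replicate 1 or moderate replicate 2). The recovery response ranged from 3 to 5 in HKI1105 (3 without HKI1105 recovery replicate 2 or V-372 recovery replicate 1) and from 3 to 5 in V-372 (5 without V-372 control replicate 2 or recovery replicate 1). Among 108 tested single results under 23 settings, 1 of which, the fit without the HKI1105 control group, gives no more than 51 of them, 2369 values kept their side of the threshold, 14 lost it, 44 gained it and 0 changed direction. Of 38 single differences at recovery or in the recovery response, which carry no test, 800 values moved by less than the SD of 2 arrays, 54 by more, and 0 called ones changed sign. The threshold for the tested single results was an adjusted p under 0.05 with no fold threshold, not the thresholds used to call members. The spread rests on 2 arrays a group and 8 residual degrees of freedom.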
